A study of Homo sapiens with 10 samples.

Results

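The 31 genes described here carry out or control the synthesis of cholesterol and fatty acids. They were matched by gene symbol to a list of genes of these pathways. All 31 were found among the 58051 gene entries of the paired-end count table, and 7 belong to the mevalonate pathway, 11 to the steps from squalene to cholesterol, 5 to the control of sterol regulatory element-binding proteins (SREBPs) and to sterol transport, and 8 to fatty acid synthesis and modification. RNA came from HAP1, a human line that is near-haploid and descends from the leukemia line KBM-7, and the study compared wild type cells with cells in which RBM4 had been knocked out. RBM4 encodes an RNA-binding protein that acts in splicing and translation. Wild type and knockout clone 1 had 3 paired-end libraries each and knockout clone 2 had 2, and 1 wild type library and 1 knockout library were sequenced single-end. Each knockout group is a single clone, so effects of the clone and of the knockout cannot be told apart within it, and the method of knockout is not stated in the sources used here. The labels do not say whether replicates were separate cultures, so the p-values speak only of the spread among these libraries, which may be technical.

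Cholesterol is built from acetyl-CoA. The mevalonate pathway turns acetyl-CoA into isoprenoid units and farnesyl diphosphate, squalene is made from these and closed into lanosterol, and a series of demethylations, reductions and isomerizations leads to cholesterol. When membranes of the endoplasmic reticulum are low in sterol, SCAP carries the SREBPs to the Golgi, where they are cut to release transcription factors that switch on these genes, while INSIG proteins hold the complex back when sterol is plentiful. SREBP-2, from SREBF2, acts mainly on cholesterol genes, and SREBP-1, from SREBF1, mainly on fatty acid genes such as FASN and SCD. SREBPs act together with NF-Y, which binds CCAAT boxes, and with Sp1, which binds GC boxes.

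RefSeq promoter windows (GRCh38.p14) were matched for 27 of the 31 genes. In the 250 bases before the start, CCAAT was found on either strand in 17 of the 27 (63.0%), against 33.0% of all 27305 promoters. The GC box GGGCGG was found in 24 of the 27 (88.9%, against 42.2%) and the E-box CACGTG in 3 (11.1%, against 6.46%). The sterol regulatory element pattern TCACNCCAC was found in 1 of the 27 (3.70%, against 0.868%), the promoter of SREBF2 itself. All motifs were searched on both strands, and matches of different motifs can share bases at their ends. A match is a string of letters and was not tested for binding. The following stretches end at the base before the start of the gene in GENCODE 29. They are shown because HMGCS1, LSS and MSMO1 differed between the knockout clones and because SREBF2 held the sterol element, a choice made after their values were seen. Capitals mark CCAAT, which reads ATTGG where it lies on the other strand, and the sterol element. The stretches are chr5:43313513-43313662 on the minus strand for HMGCS1, chr21:46228825-46229024 on the minus strand for LSS, chr4:165327419-165327622 on the plus strand for MSMO1 and chr22:41832855-41833078 on the plus strand for SREBF2.
HMGCS1: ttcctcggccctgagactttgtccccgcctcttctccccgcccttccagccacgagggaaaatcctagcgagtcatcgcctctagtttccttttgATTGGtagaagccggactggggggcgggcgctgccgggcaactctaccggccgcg
LSS: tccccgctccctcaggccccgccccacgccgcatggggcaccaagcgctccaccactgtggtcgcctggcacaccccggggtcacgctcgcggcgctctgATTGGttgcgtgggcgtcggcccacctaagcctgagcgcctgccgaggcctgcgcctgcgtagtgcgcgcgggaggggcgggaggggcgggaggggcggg
MSMO1: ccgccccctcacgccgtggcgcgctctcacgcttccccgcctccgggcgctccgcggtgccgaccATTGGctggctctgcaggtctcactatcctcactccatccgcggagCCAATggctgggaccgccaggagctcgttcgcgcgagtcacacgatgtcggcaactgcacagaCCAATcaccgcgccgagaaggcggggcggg
SREBF2: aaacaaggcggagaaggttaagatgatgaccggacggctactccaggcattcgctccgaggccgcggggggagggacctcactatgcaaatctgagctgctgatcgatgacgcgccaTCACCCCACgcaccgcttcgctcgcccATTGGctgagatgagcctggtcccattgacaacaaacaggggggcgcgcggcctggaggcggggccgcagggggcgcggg

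The stretch of MSMO1 held 3 of the 4 CCAAT copies found in its window, and that of HMGCS1 held 1 of 2. LSS and SREBF2 each held 1. The matched genes without CCAAT in their windows were PMVK, IDI1, CYP51A1, DHCR7, SREBF1, SCAP, ACACA, ELOVL6, FADS1 and FADS2.

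Total counts ran from 33192095 to 55617525 in the paired-end libraries. RBM4 RNA stood at 79.8, 79.8 and 78.7 CPM (counts scaled to a common library size) in the wild type libraries, 22.3, 22.9 and 24.5 CPM in the libraries of clone 1, and 25.3 and 25.8 CPM in those of clone 2, so RBM4 RNA was reduced and not absent. BCR and ABL1, whose fusion marks the KBM-7 lineage, were present at 18.6 and 13.4 CPM in wild type. In the edgeR test described below, both were higher in the mean of the knockout clones at an adjusted p below 0.05, as were 9.87% of all features. Their log2 fold changes ran from 0.23 to 0.27, and neither passed with GC correction. Of 7 markers of blood cells, none passed the filter on low counts, and they summed to 0.054 to 0.319 CPM per library. Of 7 markers of fibroblasts, 2 passed, COL1A2, DCN and LUM were at 0 in every library, and the sum was 13.5 to 14.4 CPM in wild type, 19.3 to 23.8 CPM for clone 1 and 26.3 to 26.9 CPM for clone 2, nearly all from the collagen gene COL1A1. In bulk RNA, a change in the share of cells of a type and a change in RNA per cell cannot be told apart, and the part of these marker levels in the results below was not tested. Libraries also differed in how level moved with the GC content of genes: across the genes tested, the Spearman correlation of a gene's relative level with its GC content was -0.41, -0.34 and -0.25 for wild type, 0.28, -0.017 and 0.39 for clone 1, and 0.35 and -0.050 for clone 2. The GC content of the 31 genes ran from 34.2% to 65.3%, so the main counts of called genes are also given after the GC trend of each library had been removed.

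All 31 genes were expressed in wild type HAP1 cells, and all passed the filter on low counts, with at least 481 counts in every paired-end library. Levels between genes were compared as CPM per kilobase of exon. Fatty acid genes stood highest: SCD, the desaturase that makes monounsaturated fatty acids, had 121 CPM per kilobase, FASN, the fatty acid synthase, 98.1, and ACLY, which makes cytosolic acetyl-CoA from citrate, 75.5. The sterol isomerase gene EBP (52.4) and the farnesyl diphosphate synthase gene FDPS (48.9) followed. HSD17B7, a sterol ketoreductase gene, was lowest with 3.05 CPM per kilobase, below the mevalonate kinase gene MVK with 3.74. The wild type replicates were close to each other, with a coefficient of variation of CPM from 0.870% to 9.01% and a median of 3.01% over the 31 genes.

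**Figure D1:**
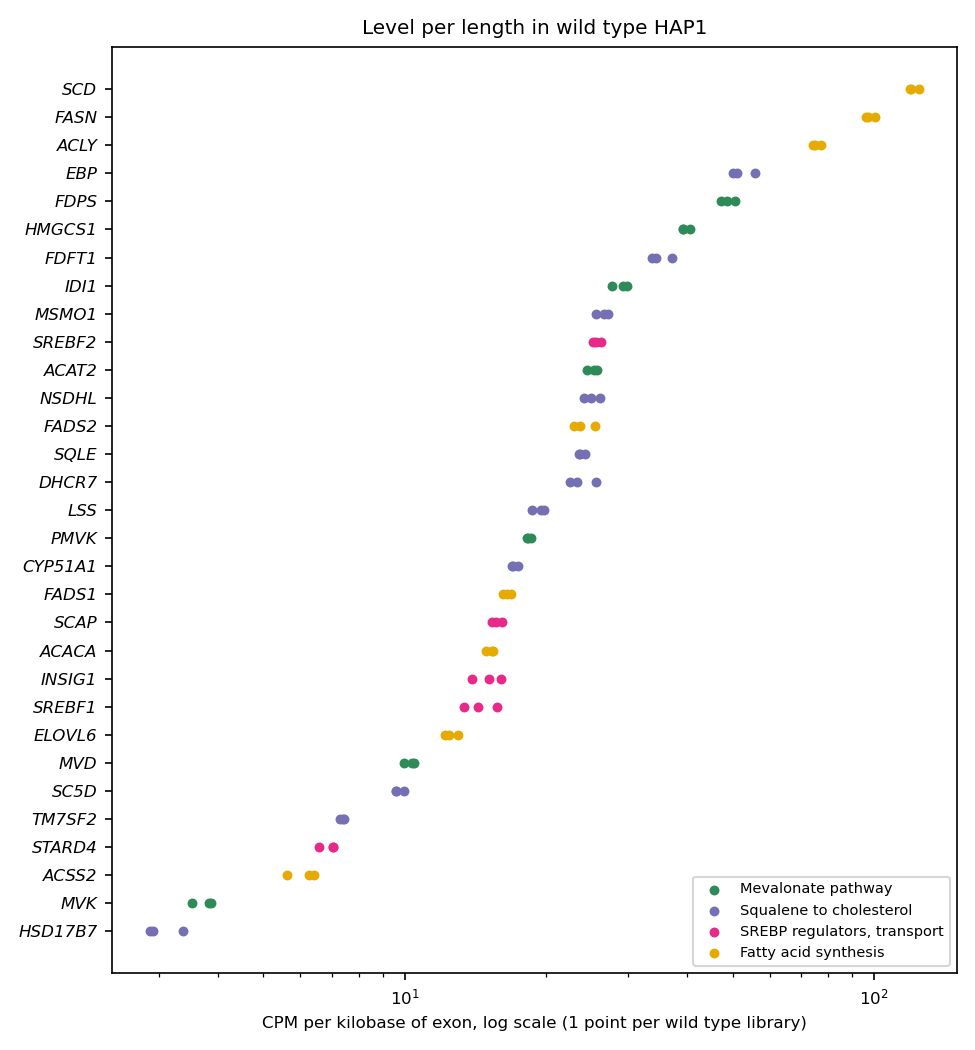
Level of each gene in wild type HAP1 cells in CPM per kilobase of exon (log scale), 1 point for each of the 3 wild type libraries, colored by the step of synthesis. SCD, FASN and ACLY sit at the top, from 121 to 75.5 on average, and HSD17B7 at 3.05 is lowest.

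Against wild type, the mean of the knockout clones moved a minority of these genes by small amounts and in both directions. In edgeR's quasi-likelihood test with Benjamini-Hochberg adjustment over all 20747 features tested, 8 of the 31 genes were called at an adjusted p below 0.05 (25.8%), against 18.0% of all features and 21.8% of the 9313 features at or above the lowest mean level of the 31. The share is near that background. PMVK, FDPS, LSS, NSDHL, HSD17B7 and ACSS2 rose, 6 genes where 9.87% of all features rose, and SCD and ELOVL6 fell, 2 genes where 8.09% fell. The largest change was that of PMVK, 0.37 on the log2 scale or 1.29-fold. The median log2 fold change of the 31 was 0.051, beside 0.0020 over all features. At an unadjusted p below 0.05 the count was 16. The share of all features below that threshold is not given here, so this count and later unadjusted counts have no background. For the 23 genes that were not called, approximate 95% intervals of the log2 fold change reached no further than -0.28 and 0.30, which is 1.23-fold. Every knockout library lay above every wild type library for 7 genes (background 13.5%) and below for 2 (background 11.8%).

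After GC correction 11 of the 31 were called, against 15.3% of all features, and 5 of the 8 kept their call (PMVK, FDPS, HSD17B7, SCD and ELOVL6). LSS, NSDHL and ACSS2 were no longer called, while HMGCS1, MSMO1 and SC5D were called higher and TM7SF2, SREBF1 and FASN lower, which made 6 higher (background 7.75%) and 5 lower (background 7.50%). The share of called genes that were higher was 75% without and 54.5% with the correction. The count also fell to 4 without wild type replicate 1 and to 3 without wild type replicate 2. Over all features, the number called fell in these settings as well, from 3725 to 1847 and 2217. The count of the 31 genes fell too without clone 2 replicate 1, which leaves 1 library in that clone. Beside these calls, the fibroblast marker COL1A1 rose from 13.4 CPM to 19.7 CPM (clone 1) and 26.3 CPM (clone 2). THY1, the other fibroblast marker that passed the filter, rose in clone 1 (log2 fold change 1.69). In clone 2 THY1 had -1.09 and was not called. The part of these markers was not tested.

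**Figure D2:**
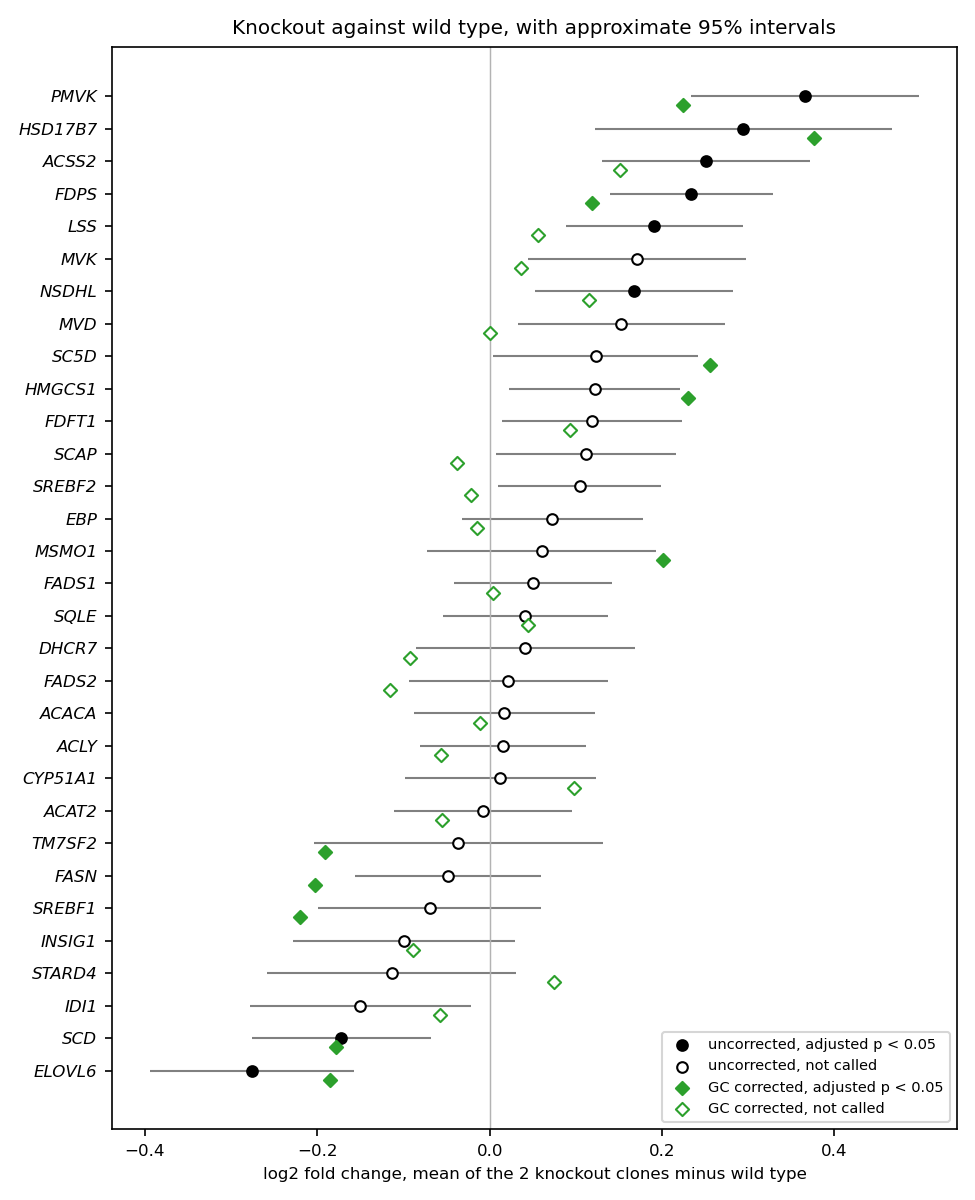
Log2 fold change of each gene, mean of the knockout clones minus wild type, with approximate 95% intervals from the quasi-likelihood fit (circles) and the value after GC correction (diamonds). Filled symbols have an adjusted p below 0.05. PMVK at 0.37 is highest and ELOVL6 at -0.28 lowest, and TM7SF2, FASN and SREBF1 are called after GC correction only.

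In the mevalonate pathway, 2 of 7 genes rose, PMVK and FDPS, and no gene fell, where 9.87% of all features rose and 8.09% fell. With GC correction 3 rose, HMGCS1 being the third, and none fell (7.75% and 7.50% of all features). PMVK, which phosphorylates mevalonate phosphate (chromosome 1, 154924734 to 154936991), stood at 23.3, 23.5 and 23.8 CPM in wild type, 33.3, 28.3 and 31.2 CPM in the libraries of clone 1, and 30.0 and 29.5 CPM in those of clone 2. All 5 knockout libraries lay above all 3 wild type libraries, with a log2 fold change of 0.37 (SE 0.061, adjusted p = 0.00114), and both clones passed on their own (0.39 and 0.34). The call in the mean held without each library in turn and in the other 12 settings tried, with 0.22 after GC correction. With that correction clone 2 on its own was not called (adjusted p = 0.0508).

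FDPS, which makes farnesyl diphosphate (chromosome 1, 155308748 to 155320666), stood at 176, 181 and 188 CPM in wild type, 209, 206 and 211 CPM in the libraries of clone 1, and 217 and 219.9 CPM in those of clone 2. Again no knockout library overlapped wild type. The log2 fold change was 0.23 (SE 0.044, adjusted p = 0.00244), and 0.12 with an adjusted p of 0.0480 after GC correction. The call held without each library in turn, and of 12 other settings only GC correction together with the replicate block lost it (adjusted p = 0.0590). FDPS has 8 named pseudogenes, and how reads shared with them were counted is not given, so its level is uncertain to that extent.

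HMGCS1, the cytosolic HMG-CoA synthase (chromosome 5, 43289395 to 43313512), whose promoter stretch is shown above, stood at 191, 185 and 185 CPM in wild type, 183, 191 and 175 CPM in the libraries of clone 1, and 222 and 229.6 CPM in those of clone 2. Clone 1 overlapped wild type and clone 2 lay above both. Over both clones the log2 fold change was 0.12 (SE 0.046, adjusted p = 0.086), and GC correction gave 0.23 with an adjusted p of 0.000828. The other members of the pathway were not called in the mean of the clones in the main fit. The log2 fold change was 0.17 for MVK, 0.15 for the decarboxylase gene MVD, -0.15 for the isomerase gene IDI1, and -0.0076 for ACAT2, which joins acetyl-CoA units. Some other edgeR settings called MVK, MVD or IDI1. A term for the runs of sample numbers described below gave MVK 0.22 (adjusted p = 0.0359) and MVD 0.20 (adjusted p = 0.0340). Length correction gave IDI1 -0.17 (adjusted p = 0.0419).

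Among the 11 genes from squalene to cholesterol, 3 rose in the mean of the clones and no gene fell (9.87% and 8.09% of all features). With GC correction 3 rose (HSD17B7, MSMO1 and SC5D) and 1 fell (TM7SF2), beside 7.75% and 7.50%. LSS, which closes the ring system to give lanosterol (chromosome 21, 46188141 to 46228824), stood at 142, 136 and 144 CPM in wild type, 143, 144 and 154 CPM in the libraries of clone 1, and 179.6 and 169 CPM in those of clone 2. Clone 1 overlapped wild type and clone 2 lay above every other library. The difference was 0.19 on the log2 scale (SE 0.048, adjusted p = 0.0141), which became 0.056 with an adjusted p of 0.361 after GC correction. The call was lost with the knockout libraries taken as 1 group (adjusted p = 0.111), and without wild type replicate 1, wild type replicate 2 or clone 2 replicate 1 (up to 0.127).

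NSDHL and HSD17B7 act together in removing methyl groups from the sterol ring. NSDHL (chromosome X, 152830967 to 152869729) stood at 48.2, 49.7 and 52.2 CPM in wild type, 58.2, 53.7 and 57.8 CPM in the libraries of clone 1, and 58.3 and 53.6 CPM in those of clone 2. The groups did not overlap, yet the call was borderline: the log2 fold change was 0.17 (SE 0.053, adjusted p = 0.0448), and the call held only when clone 1 replicate 2 was left out, with adjusted p up to 0.245 without each of the others. RLE size factors, DESeq2, GC correction and length correction lost it as well (adjusted p up to 0.119).

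HSD17B7 (chromosome 1, 162790702 to 162812817) stood at 13.9, 13.7 and 16.1 CPM in wild type, 18.8, 18.7 and 16.2 CPM in the libraries of clone 1, and 18.5 and 17.3 CPM in those of clone 2. The lowest knockout library was just above the highest wild type library. The log2 fold change was 0.29 (SE 0.080, adjusted p = 0.0215), and 0.38 after GC correction, and the call was lost without wild type replicate 1, wild type replicate 2 or clone 2 replicate 1 (adjusted p up to 0.133). HSD17B7 has 2 named pseudogenes, so its level carries the same uncertainty as that of FDPS.

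SQLE, the squalene epoxidase gene and a rate-limiting step, stood at 101, 102 and 105 CPM in wild type, 103, 98.8 and 96.9 CPM in the libraries of clone 1, and 114 and 110.5 CPM in those of clone 2. The mean of the clones was not called (0.041 on the log2 scale, interval -0.054 to 0.14, adjusted p = 0.571). MSMO1, the sterol methyl oxidase gene (chromosome 4, 165327623 to 165343160), stood at 78.7, 77.0 and 74.1 CPM in wild type, 75.2, 75.8 and 63.2 CPM in the libraries of clone 1, and 91.8 and 86.8 CPM in those of clone 2. Clone 2 was again the higher group, and the mean of the clones (0.060, adjusted p = 0.554) was not called without GC correction.

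The other 6 genes of these steps were not called: FDFT1, which makes squalene (0.12), the desaturase gene SC5D (0.12), EBP (0.072), DHCR7, which catalyzes a final reduction (0.041), the lanosterol demethylase gene CYP51A1 (0.012) and the sterol reductase gene TM7SF2 (-0.036), all as log2 fold changes. The signs of EBP, DHCR7, CYP51A1 and TM7SF2 turned in some of the other settings. GC correction raised SC5D to 0.26 (adjusted p = 0.00511) and took TM7SF2 to -0.19 (adjusted p = 0.0323). TM7SF2 shares exonic sequence on the same strand with VPS51, so its counts may include reads of that gene.

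**Figure D3:**
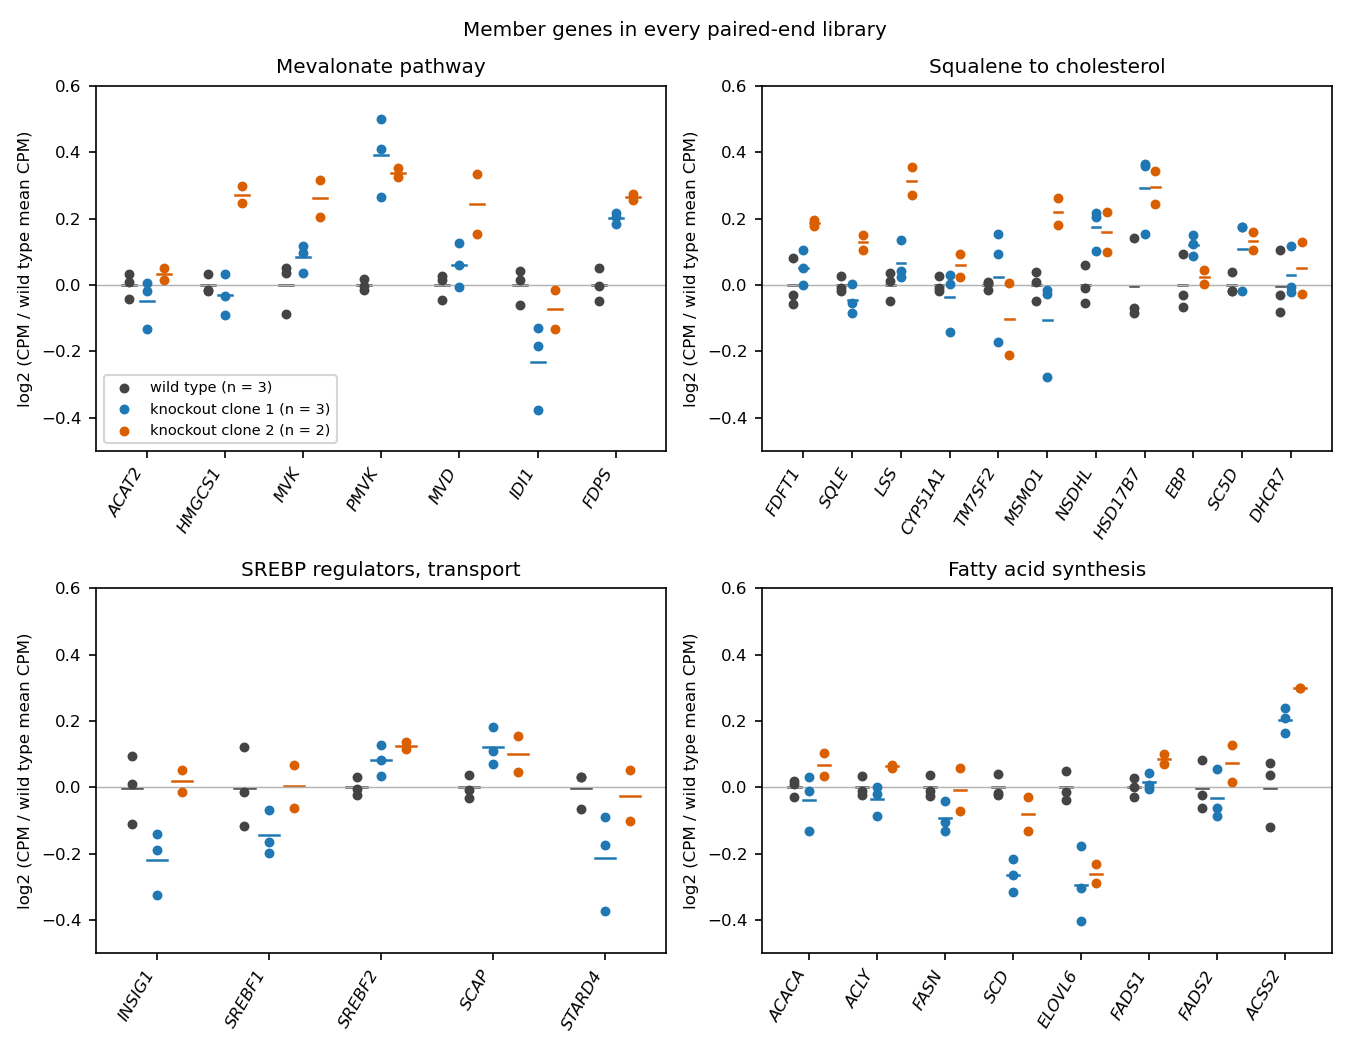
Level of each gene in every paired-end library as the log2 ratio to its wild type mean, with a bar at the mean of these ratios in each group, for wild type (gray, n = 3), clone 1 (blue, n = 3) and clone 2 (orange, n = 2). PMVK and FDPS sit above wild type and ELOVL6 below it in both clones, while HMGCS1, LSS and MSMO1 are higher in clone 2 than in clone 1.

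None of the 5 genes of SREBP control and sterol transport was called in the mean of the clones in the main edgeR fit or by DESeq2. In the main fit 2 had an unadjusted p below 0.05. SREBF2 stood at 193, 191 and 198 CPM in wild type, 199, 206 and 212 CPM in the libraries of clone 1, and 213 and 210.5 CPM in those of clone 2, a log2 fold change of 0.10 (SE 0.044, adjusted p = 0.121). Its groups did not overlap, although by little, and GC correction took the value to -0.021. SCAP, the escort protein gene, stood at 98.9, 101 and 104 CPM in wild type, 109, 106 and 115 CPM in the libraries of clone 1, and 113 and 104 CPM in those of clone 2 (0.11, adjusted p = 0.134, and -0.038 after GC correction).

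SREBF1 stood at 115, 107 and 127 CPM in wild type, 104, 101 and 111 CPM in the libraries of clone 1, and 122 and 111 CPM in those of clone 2. The groups overlapped, and the log2 fold change was -0.070 (SE 0.060, adjusted p = 0.469). With GC correction it was -0.22 (adjusted p = 0.00486). SREBF1 is among the most GC-rich of the 31 genes, at 62.8%.

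INSIG1, an SREBP target whose product retains the SREBP complex, stood at 58.7, 50.9 and 55.4 CPM in wild type, 49.9, 48.2 and 43.9 CPM in the libraries of clone 1, and 57.0 and 54.4 CPM in those of clone 2. Every clone 1 library was below every wild type library, and clone 2 overlapped wild type. INSIG1 fell in clone 1 by 0.22 on the log2 scale (SE 0.067, adjusted p = 0.0417) and was not called in clone 2 (0.018) or in the mean (-0.10, adjusted p = 0.281), while the clones did not pass the test against each other (adjusted p = 0.196). STARD4, a cytosolic sterol carrier, had -0.11 in the mean (adjusted p = 0.273), a value that turned to 0.074 with GC correction. With a term for the runs of sample numbers described below, edgeR called STARD4 lower in the mean (-0.24, adjusted p = 0.0138). With that term it was also called lower in clone 1 (-0.35, adjusted p = 0.00302).

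Of the 8 fatty acid genes, 1 rose and 2 fell (9.87% and 8.09% of all features). With GC correction none rose and 3 fell, FASN, SCD and ELOVL6 (7.75% and 7.50% of all features). ELOVL6, which lengthens saturated and monounsaturated fatty acids (chromosome 4, 110045846 to 110199199), stood at 94.8, 89.2 and 90.7 CPM in wild type, 74.1, 80.9 and 69.2 CPM in the libraries of clone 1, and 75.0 and 77.9 CPM in those of clone 2. All knockout libraries lay below all wild type libraries, the log2 fold change was -0.28 (SE 0.055, adjusted p = 0.00364), and both clones were called. The call in the mean held without each library in turn and in the other 12 settings, with -0.18 after GC correction. With that correction clone 2 on its own was not called (adjusted p = 0.0549).

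SCD (chromosome 10, 100347124 to 100364834) stood at 639, 643 and 668 CPM in wild type, 523, 559 and 541 CPM in the libraries of clone 1, and 637 and 593 CPM in those of clone 2. The knockout libraries were lower than wild type, but the highest clone 2 library nearly reached the lowest wild type library. On the log2 scale the change was -0.17 (SE 0.048, adjusted p = 0.0246), -0.26 in clone 1 (adjusted p = 0.00495) and -0.080 in clone 2 (adjusted p = 0.466), and the test of the clones against each other was not passed (adjusted p = 0.22). The call was lost without any 1 of the wild type replicates or clone 2 replicate 2 (adjusted p up to 0.116), and with the knockout libraries taken as 1 group (0.0561).

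ACSS2, which makes acetyl-CoA from acetate (chromosome 20, 34872146 to 34927962), stood at 33.6, 30.2 and 34.6 CPM in wild type, 38.8, 37.9 and 36.7 CPM in the libraries of clone 1, and 40.4 and 40.4 CPM in those of clone 2. No knockout library overlapped wild type. The log2 fold change was 0.25 (SE 0.056, adjusted p = 0.0075), both clones were called, and GC correction gave 0.15 (adjusted p = 0.0602). Without wild type replicate 2 the adjusted p was 0.0828.

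FASN stood at 910.5, 902 and 943 CPM in wild type, 854, 838 and 893 CPM in the libraries of clone 1, and 956 and 874 CPM in those of clone 2. All clone 1 libraries lay below the wild type libraries, while 1 clone 2 library lay above them and 1 below, and the log2 fold change was -0.048 (SE 0.050, adjusted p = 0.557). With 65.3% GC, the highest of the 31, FASN moved to -0.20 (adjusted p = 0.0104) with GC correction. The acetyl-CoA carboxylase gene ACACA (0.017), ACLY (0.015) and the desaturase genes FADS1 (0.051) and FADS2 (0.021) were not called, and the signs of ACACA, ACLY and FADS2 turned with GC correction. FADS1 and FADS2 overlap on opposite strands, and since it is not stated whether counting used strand, reads may have been split between them in either way.

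Taken singly against the same wild type libraries, each clone had 8 genes called, and they differed in direction. In clone 1, PMVK, FDPS, HSD17B7 and ACSS2 rose (background 9.37%) and IDI1, INSIG1, SCD and ELOVL6 fell (background 6.64%), 8 of 31 beside 16.0% of all features and 19.6% of those at or above the lowest mean level of the 31. In clone 2, HMGCS1, MVK, PMVK, MVD, FDPS, LSS and ACSS2 rose (background 6.18%) and ELOVL6 fell (background 4.59%), 8 of 31 beside 10.8% of all features and 11.4% of those at that level. Among genes called in a single clone, IDI1 fell by 0.23 in clone 1 (adjusted p = 0.0327), and MVK and MVD rose by 0.26 and 0.25 in clone 2 (adjusted p = 0.0328 and 0.0347). PMVK, FDPS, ACSS2 and ELOVL6 were called the same way in both clones, which share their wild type libraries, and 18 genes were called in neither clone nor the mean.

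With GC correction, PMVK, HSD17B7 and SC5D rose in clone 1 (background 6.92%) and INSIG1, SREBF1, FASN, SCD, ELOVL6 and FADS2 fell (background 6.44%), 9 of 31 beside 13.4% of all features. In clone 2, HMGCS1, FDPS, LSS, MSMO1, HSD17B7, SC5D and ACSS2 then rose (background 5.65%) and TM7SF2 fell (background 4.76%), 8 of 31 beside 10.4% of all features. PMVK, FDPS, ACSS2 and ELOVL6, called in both clones without the correction, were each called in a single clone with it. HSD17B7 and SC5D were then called higher in both clones. In the mevalonate pathway, 5 genes had been called in clone 2 without the correction and 2 were called with it. For the single clones, the counts over all features with a library left out are not given here. Without the correction, the count in clone 1 fell to 3 without wild type replicate 1, to 4 without wild type replicate 2 and to 5 without wild type replicate 3. That in clone 2 fell to 3, 3 and 5 without the same libraries, to 2 without clone 2 replicate 2, and to 0 without clone 2 replicate 1, where edgeR gave 8 at an unadjusted p below 0.05 (DESeq2 on all libraries called 6).

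In the test of the clones against each other, HMGCS1, LSS and MSMO1 were higher in clone 2 (background 1.10%) and no gene was called lower (background 0.993%). That is 3 of 31 (9.68%), against 2.09% of all features and 1.11% of features at or above the lowest mean level of the 31. From the values above, HMGCS1 was higher in clone 2 by 0.30 (SE 0.057, adjusted p = 0.0103), MSMO1 by 0.32 (SE 0.076, adjusted p = 0.0444) and LSS by 0.25 (SE 0.058, adjusted p = 0.0452), all on the log2 scale. With GC correction these became 0.29, 0.32 and 0.28, all still called, and MVD joined them (0.21, adjusted p = 0.0384), 4 of 31 beside 2.48% of all features. In clone 2 MVD stood at 61.0 and 53.8 CPM, above the 50.5, 48.2 and 52.8 CPM of clone 1.

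More of the 31 genes leaned the same way without passing the test. The log2 difference was above 0 for 25 of 31 (80.6%). The share was 49.6% of all features and 45.5% of those at or above the lowest mean level of the 31. The median was 0.096 beside -0.0013 over all features, and 10 of the 31 genes had an unadjusted p below 0.05. Every clone 2 library lay above every clone 1 library for 16 genes (background 11.4%) and below for 1, EBP (background 11.4%). The 8 fatty acid genes were all higher in the mean of clone 2, none of them called by edgeR or DESeq2, and 1 had an unadjusted p below 0.05. The genes share libraries and known regulators, so they are not independent observations of the clones.

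The sample numbers in the column names fall into 2 runs, 1 to 5 and 11 to 13, and each run holds both clones. The labels do not say what these runs of numbers stand for. No wild type library is in the second run, so comparisons with wild type are in part confounded with the run. With the run as a term, 11 of the 31 genes were called in the mean of the clones, 8 higher and 3 lower. Of the 20747 features, 1995 were then called higher and 2091 lower. In the first run (clone 1 replicate 1 and clone 2 replicate 1) clone 2 was higher for 25 of the 31 genes (80.6%), beside 51.7% of all features. In the second run (clone 1 replicates 2 and 3, whose mean was taken, and clone 2 replicate 2) it was higher for 24 (77.4%, beside 49.2%), and 22 genes were higher in both (71.0%, beside 30.9%). With the run as a term in the fit, the same 3 genes were called between the clones. The first run holds 1 library of each clone, so it gives no test of the clones over their own spread. Its log2 differences were 0.27 for HMGCS1, 0.32 for LSS and 0.28 for MSMO1.

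The calls between the clones rest on few libraries. HMGCS1 kept its call when any wild type or clone 1 library was left out and lost it without either clone 2 library (adjusted p up to 0.221). MSMO1 kept its call without clone 1 replicate 1 or 2 only (up to 0.355 without the others), and LSS without clone 1 replicate 3 only (up to 0.432). MSMO1 also lost its call with RLE size factors, with a filter of 1 CPM in 2 libraries and with the replicate block (up to 0.0647). Without clone 2 replicate 1 or 2 no gene was called by edgeR (6 and 9 at an unadjusted p below 0.05, and DESeq2 on all libraries called 3), and without any 1 wild type library 1 gene was called. Over all features, 434 were called between the clones, and 377, 389 and 396 without wild type replicate 1, 2 or 3. The fibroblast marker COL1A1 also differed between the clones (log2 difference 0.41, adjusted p = 0.025). So did THY1, the other fibroblast marker that passed the filter, in the other direction (-2.77, adjusted p = 0.0033). Their part in these differences was not tested.

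**Figure D4:**
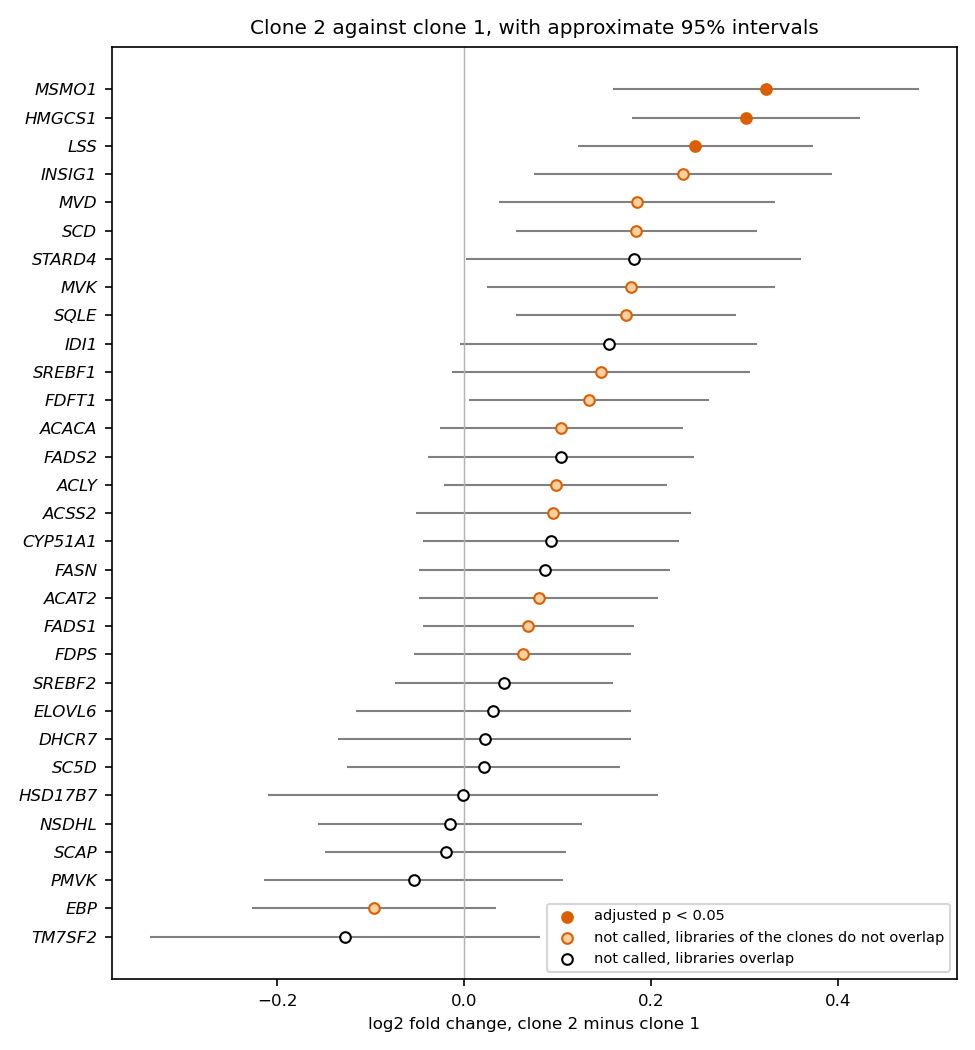
Log2 difference of clone 2 minus clone 1 for each gene, with approximate 95% intervals. MSMO1, HMGCS1 and LSS (filled) have an adjusted p below 0.05, and light symbols mark genes whose clone libraries do not overlap. Of the 31 genes, 25 lie above 0, beside 49.6% of all features.

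Genes around the pathway, from lists of related processes, moved in both directions as well. Over all features tested, 9.87% rose and 8.09% fell, and 7.75% and 7.50% with GC correction, and each count below stands beside these shares. Of 12 genes that process or degrade SREBP pathway proteins, none rose and 2 fell: the protease gene MBTPS2 (log2 fold change -0.21, adjusted p = 0.0153), which makes the second cut that frees SREBPs, and ERLIN2 (-0.20, adjusted p = 0.0107). With GC correction neither was called, and the list held 1 gene that rose (PAQR3, 0.16, named after its value was seen, like POR and PLIN2 below) and none that fell. Among electron donors and sterol reductases, CYB5R3 rose (0.18) and LBR fell (-0.30, adjusted p = 0.00161), 2 of 5 tested, and neither was called with GC correction, where 1 other gene fell (POR, -0.22).

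Of 12 tested genes of isoprenoid use, 1 rose and 3 fell. The farnesyltransferase subunit genes went opposite ways, with FNTB at 0.24 (adjusted p = 0.011) and FNTA at -0.22 (adjusted p = 0.00871), and RABGGTB, a subunit of the enzyme that prenylates Rab proteins, fell by 0.28 (adjusted p = 0.00099). With GC correction RABGGTB alone was called (-0.13).

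The 16 genes of cholesterol transport and storage held larger changes, with 4 higher and 3 lower, and 3 and 1 with GC correction. CAV1, the main protein of caveolae, rose from a wild type level of 0.867 ± 0.090 CPM (SD, n = 3) to 2.64 ± 0.33 CPM for clone 1 (n = 3) and 3.95 ± 0.90 CPM for clone 2 (n = 2), a log2 fold change of 1.91 (SE 0.18, adjusted p = 7.96e-06). The lipoprotein receptor gene VLDLR rose from 15.6 to 21.4 and 23.7 CPM (0.53, adjusted p = 0.00019). SOAT1, which esterifies cholesterol for storage, fell from 201 to 163 and 157 CPM (-0.33, adjusted p = 0.00173), and these 3 kept their calls with GC correction. GRAMD1C, a sterol carrier at membrane contacts, was low and fell (-0.68, adjusted p = 0.0255), but not with GC correction (adjusted p = 0.0619).

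The liver X receptors (LXRs) are nuclear receptors switched on by oxysterols, and 4 genes of the LXR list of 10 rose and 1 fell (2 and 1 with GC correction). NR1H3, which encodes LXR-alpha, fell from a wild type level of 8.35 ± 0.74 CPM (SD, n = 3) to 4.21 ± 0.72 CPM (clone 1, n = 3) and 3.36 ± 0.15 CPM (clone 2, n = 2) (-1.16, SE 0.12, adjusted p = 1.44e-05). Its partner RXRA rose (0.28, adjusted p = 0.00124). MYLIP, an LXR target that marks lipoprotein receptors for degradation, rose from 24.2 CPM to 27.8 CPM (clone 1) and 35.2 CPM (clone 2) (0.37, adjusted p = 0.00049), and the clones differed (0.34, adjusted p = 0.015). NR1H3 and MYLIP kept their calls with GC correction and RXRA did not.

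Of 24 tested genes of other fatty acid synthesis and elongation, 1 rose (FADS3, 0.23) and 6 fell, led by ELOVL2, an elongase of polyunsaturated fatty acids, from 44.0 to 31.6 and 31.8 CPM (-0.47, SE 0.056, adjusted p = 6.57e-05), with ACSL3 at -0.24. ELOVL2 was called with GC correction (-0.35), and FADS3 and ACSL3 were not, and the list then held 1 gene that rose and 3 that fell. Of 15 glycerolipid genes, 1 rose and 1 fell, without and with GC correction. The phosphatidate phosphatase gene LPIN3 rose from 14.5 to 23.2 and 25.9 CPM (0.76, adjusted p = 9.45e-06) and AGPAT5 fell (-0.19, adjusted p = 0.0251, not called with GC correction, where PLIN2 fell instead, at -0.21).

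Of 21 genes of fatty acid oxidation, 5 rose and 3 fell (9.87% and 8.09% of all features), and 5 and 1 with GC correction. ACADVL, the acyl-CoA dehydrogenase for very long chains, rose from 96.4 to 135 and 121 CPM (0.41, adjusted p = 4.78e-05), and HADHA, of the trifunctional protein, from 153 to 168 and 191 CPM (0.23, adjusted p = 0.00604). HADH, which acts on shorter chains, fell from 93.8 to 72.4 and 64.1 CPM (-0.46, adjusted p = 0.000154), and ACADM by 0.17. ACADM was not called with GC correction, and the other 3 were. Over the 8 lists together, 37 of 115 tested genes were called (32.2%), 17 higher and 20 lower. The share was 18.0% of all features and 21.8% of the features at or above the lowest mean level of the 31 genes (16.6 CPM). Some list genes, such as CAV1 and NR1H3, lie below that level, so the 21.8% is not matched to the levels of the lists. With GC correction 22 were called, 13 higher and 9 lower, beside 15.3% of all features. Without the correction, the count of the lists fell to 14, 21 and 19 without wild type replicate 1, 2 or 3. Over all features, the number called fell in the same settings from 3725 to 1847, 2217 and 2443. The count of the lists also fell without clone 2 replicate 1, which leaves 1 library in that clone. The median log2 fold change of a list ran from -0.097 for isoprenoid use to 0.17 for the LXR list.

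In the single-end pair, with 1 library for each genotype and no test, the 31 genes did not lean either way: 14 had a higher CPM in the knockout and 17 a lower CPM, and the median log2 ratio was -0.012. ELOVL6 was lower in the knockout here too, at 94.4 CPM in wild type and 73.6 CPM in the knockout (log2 ratio -0.36, interval -0.43 to -0.29). FDPS was higher, at 152 and 166 CPM (0.12, interval 0.075 to 0.17), as was HSD17B7, at 12.2 and 14.5 CPM (0.24, interval 0.070 to 0.41). PMVK was not, at 27.2 and 26.9 CPM (-0.012, interval -0.13 to 0.11). NSDHL, called higher in the paired-end libraries, was lower here, at 60.3 and 56.3 CPM (-0.098, interval -0.18 to -0.018). The other called genes had the paired-end direction: LSS 0.12 (interval 0.072 to 0.17), ACSS2 0.097 (interval -0.0016 to 0.19) and SCD -0.060 (interval -0.084 to -0.035). The 95% intervals are exact and cover counting error only, and the labels do not say from which clone the single-end knockout library came.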

How the data were processed

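Total RNA (65 ng per library, stranded mRNA kit with ERCC spike-ins, per the labels' protocols) was sequenced from 8 paired-end and 2 single-end libraries. The authors deposited whole-number counts per gene and repeat subfamily, not normalized. The submitters' processing notes name STAR 2.5.2a and the build hg38 (GRCh38), and the table name gives TEToolkit as the counter. The sources used here do not state its version, its strand setting, its treatment of multiply aligned reads or the annotation. Spike-ins were not used here.

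Counts were filtered with filterByExpr (20747 features), scaled with TMM factors and tested with edgeR's quasi-likelihood test (robust fit to the 8 paired-end libraries with a mean for each group). P-values were adjusted by Benjamini-Hochberg over all features and called below 0.05. CPM use TMM-adjusted library sizes, per-kilobase values GENCODE 29 exon lengths. SEs were taken as absolute log2 fold change over root F. GC and length correction removed a spline (6 degrees of freedom) of each library's log2 level against the property, fitted on genes whose mean log2 CPM reached 1. Software versions were edgeR 4.0.16, DESeq2 1.42.0 and limma 3.58.1 under R 4.3.3. Alternatives were RLE factors, TMM from genes only, DESeq2, 2 other filters, a replicate block, a term for the runs of sample numbers, the first run alone, GC and length correction, GC correction with the block, the knockouts as 1 group, and leaving out each library.

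The members and lists were chosen with earlier results of these data known. Values in every library are given for genes called in the mean of the clones or between the clones whose libraries did not overlap there (up to 14, by adjusted p), and for SREBF1, SREBF2, SCAP, INSIG1, SQLE, FASN and SCD. Of each other list, up to 2 called genes per direction were named, by p. Replicate pairs differed beyond sampling noise (chi-square over its degrees of freedom 4.54 to 22.1). In simulated counts with the real means, the test of the mean of the clones (20315 features) called 42% of 50 genes at a 1.3-fold change. It called 64% of 50 genes at 1.5-fold and 0.0389% of genes without change. These shares describe the simulated libraries only. The share called without change may not hold for the real libraries, whose GC trends differed between wild type and knockout. The shares were not split by expression level, so they do not give the power for the genes described here.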

Additional observations from a re-analysis of the deposited data

Results flagged for a closer look

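Among the 31 genes and the 8 surrounding pathway lists, 4 genes differed between the knockout clones when these were tested against each other with edgeR. The log2 difference of clone 2 minus clone 1 was 0.30 for HMGCS1 (SE 0.057, adjusted p = 0.0103), 0.32 for MSMO1 (SE 0.076, adjusted p = 0.0444) and 0.25 for LSS (SE 0.058, adjusted p = 0.0452), 3 genes of cholesterol synthesis. It was 0.34 for MYLIP (adjusted p = 0.015), whose product targets lipoprotein receptors for degradation. All were higher in both clone 2 libraries than in the 3 clone 1 libraries.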

How the results depend on the processing

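Leaving out a library lowers the number of replicates, and where clone 2 keeps 1 library, that library is assumed to vary like the other groups. Leaving out each library in turn gave 3 to 9 genes called in the mean of the clones (8 with all libraries), 3 to 7 in clone 1 (8), 0 to 11 in clone 2 (8) and 0 to 2 between the clones (3). In the other pathway lists it gave 14 to 42 (37), and GC correction gave 22 there, or 24 together with the replicate block. With the first run of sample numbers alone, 1 gene was called between the clones, but each clone then has 1 library and the spread comes from wild type alone. In all other settings these counts stayed within 1.5 times. For the 8 called genes the direction was kept in every setting.

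The replicate numbers do not pair the libraries across all groups. Over 7 same-numbered pairs the correlation of deviations from the group means ran from -0.392 to 0.512, and 3 were above 0.1. Of 8 libraries, 4 correlated best with their own number. Between the clones the correlation was 0.512 for replicates 1 and 0.499 for replicates 2, and each of these pairs shares a run of sample numbers. With 2 libraries in clone 2, their deviations from the group mean are equal and opposite. The correlations with clone 2 and the counts above are therefore not independent observations of pairing. With the replicate block 9 genes were called in the mean of the clones, 9 in clone 1, 8 in clone 2, 2 between the clones and 40 in the other lists.

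Signs turned only for genes that were not called in the mean of the clones, and the cause was not tested. These are their turned log2 fold changes. With GC correction, the values were EBP -0.015, DHCR7 -0.093, SREBF2 -0.021, SCAP -0.038, STARD4 0.074, ACACA -0.011, ACLY -0.057 and FADS2 -0.12. With GC correction and the replicate block, the values were MVD -0.0078, EBP -0.010, DHCR7 -0.096, SREBF2 -0.021, SCAP -0.042, STARD4 0.085, ACACA -0.0053, ACLY -0.050 and FADS2 -0.10. With the run of sample numbers as a term, the values were ACAT2 0.028, TM7SF2 0.080, ACACA -0.049 and ACLY -0.0081. With the first run alone, the values were ACAT2 0.024, TM7SF2 0.076, ACACA -0.054 and ACLY -0.013. With length correction, the values were CYP51A1 -0.023 and ACLY -0.00025. With no filter, the value was ACAT2 0.00032. Leaving out each library in turn gave -0.039 to 0.0093 for ACAT2, -0.0093 to 0.034 for CYP51A1, -0.097 to 0.012 for TM7SF2, -0.0079 to 0.089 for DHCR7, -0.011 to 0.029 for ACACA, -0.0056 to 0.025 for ACLY and -0.017 to 0.057 for FADS2.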
